A study of Petunia x hybrida with 12 samples.

Results

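For each gene of the petunia root, the change between roots inoculated with an arbuscular mycorrhizal fungus and control roots was measured in the *ram1* mutant and in the wild type, and the difference between these 2 changes was tested over all 12 libraries. A gene entered the test when any group had a mean of 10 reads or more, which held for 22954 of 32928 gene models. The groups were mycorrhizal roots of *ram1*, control roots of *ram1*, mycorrhizal roots of the wild type and control roots of the wild type, with 3 replicate plants each. The plants were *Petunia hybrida* wild type W115 and the mutant *ram1-2*, whose line background the study does not state. The part of line background in the differences was not tested. Plantlets of 4 weeks were transferred, inoculated with *Rhizophagus irregularis* (about 30 g of inoculum in soil) or left without it, and harvested 15 days later. Nurse plants were used for inoculation, so that the fungus entered the roots of both genotypes. The paper still reports a lower mean colonization and a lower share of fungal reads in mycorrhizal *ram1* than in mycorrhizal wild type roots. The part of this lower fungal content in the differences was not tested. All plants received the same weekly nutrient solution. Each group is a set of whole roots, in which colonized and uncolonized cells are mixed, and the mutant is represented by 1 allele. The response in a genotype is the log2 fold change of mycorrhizal over control roots, and the difference in response is the *ram1* response minus the wild type response, so a positive value means a larger induction or a weaker repression in *ram1*.

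In arbuscular mycorrhiza the fungus grows into the root cortex and forms highly branched arbuscules inside cortical cells, where it delivers phosphate and nitrogen and takes up lipids and sugars from the plant. *RAM1* encodes a transcription factor of the GRAS family that is required for normal arbuscules and for the expression of many genes that act in arbuscule-containing cells. Roots that receive phosphate from the fungus are also known to lower their own phosphate starvation response.

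The libraries held 7152267 to 13391147 total gene reads. Values are given as CPM, the reads of a gene relative to all reads of its library with TMM scaling, for the 3 libraries of a group in the order of their replicate numbers. A gene is called when the adjusted p (Benjamini-Hochberg over all 22954 genes) of edgeR's quasi-likelihood test was below 0.05. *RAM1* itself (Peaxi162Scf00420g00650.1) had 6.07, 8.63 and 8.32 CPM in mycorrhizal *ram1* roots and 0.328, 0.231 and 0.148 CPM in control *ram1* roots, against 115.2, 109 and 129 CPM in mycorrhizal and 0.0813, 0.335 and 0.235 CPM in control wild type roots. Its transcript rose in both genotypes and less in *ram1*, with a difference in response of −4.05 (SE 0.585, adjusted p = 0.0022). Within their groups, *ram1* mycorrhizal replicate 1 and *ram1* control replicate 3 stood farthest from the other libraries, with 9.53% and 8.35% of genes more than 1 log2 unit away from the mean of the other replicates, against 2.48% to 5.96% in the remaining 10 libraries. The 9 tested circadian clock genes summed to 952 to 974 CPM in mycorrhizal and 924 to 945 CPM in control *ram1* roots, against 656 to 792 CPM in mycorrhizal and 836 to 929 CPM in control wild type roots. None of the 9 was called for a difference in response, whose median was 0.27 on the log2 scale. Of the 9, 3 were repressed in the wild type and 0 in *ram1*, against 9.14% and 5.17% of all tested genes. In mycorrhizal roots 5 were higher and 1 lower in *ram1* than in the wild type, against 26.7% and 25.9% of all tested genes. The 29 tested photosynthesis genes, markers of shoot tissue, summed to 142.5 to 171 CPM in mycorrhizal and 98.4 to 142.8 CPM in control *ram1* roots. In the wild type they summed to 112.9 to 159.4 CPM in mycorrhizal and 74.2 to 97.4 CPM in control roots.

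Inoculation changed 2313 genes in *ram1* (10.1%), with 1126 induced (4.91%) and 1187 repressed (5.17%). In the wild type it changed 4983 genes (21.7%), with 2886 induced (12.6%) and 2097 repressed (9.14%). The response differed between the genotypes in 2110 genes, 9.19% of those tested. It was larger in *ram1* in 924 genes (4.03%) and smaller in *ram1* in 1186 genes (5.17%). Over all tested genes the median difference in response was 0.01 on the log2 scale. The median size was 1.09 for the larger and 1.43 for the smaller responses, and at least a 5-fold difference was fitted for 113 and 362 genes. The 9 possible differences between a mycorrhizal and a control library of *ram1* did not overlap with the 9 of the wild type in 97.4% of the called genes, against 16.5% of all tested genes. The calls were made on these same libraries, so a high share follows from the calls and gives them no separate support. A gene called in 1 genotype and not in the other was often no case of a differing response: of 4150 genes called in the wild type and not in *ram1*, 2728 had no call for the difference, and the same held for 1186 of the 1480 genes called in *ram1* and not in the wild type. The counts depended on single libraries. The number of genes with a larger response in *ram1* was 569 without *ram1* mycorrhizal replicate 2, 550 without *ram1* control replicate 1, 481 without *ram1* control replicate 2 and 1662 without *ram1* control replicate 3. It was 474 without wild type mycorrhizal replicate 1, 491 without wild type mycorrhizal replicate 2, 500 without wild type control replicate 1 and 596 without wild type control replicate 2. The number with a smaller response was 760 without wild type mycorrhizal replicate 2 and, over the other settings that leave out 1 library, stayed within 1.5-fold of 1186.

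**Figure D1:**
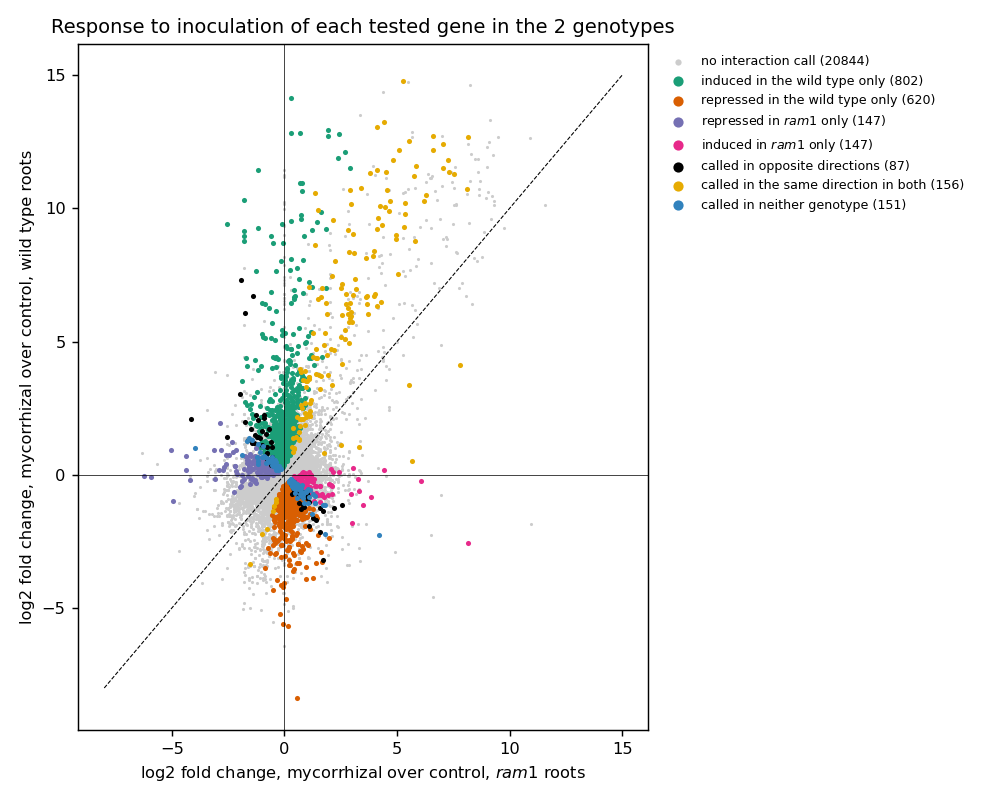
Response of each of the 22954 tested genes to inoculation, as log2 fold change of mycorrhizal over control roots, in *ram1* on the x axis and in the wild type on the y axis; colours mark the classes of the 2110 genes with a difference in response and the dashed line marks equal responses. The 802 genes induced in the wild type only rise along the y axis, and the 620 repressed in the wild type only extend below the x axis.

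Most differences came from genes that were called in the wild type and not in *ram1*. Of the 2110 genes, 802 were induced in the wild type only (3.49% of those tested) and 620 were repressed in the wild type only (2.7%). In *ram1* only, 147 genes were induced (0.64%) and 147 were repressed (0.64%). A further 156 genes were called in the same direction in both genotypes (0.68%), 87 in opposite directions (0.379%) and 151 in neither (0.658%). The levels of *ram1* and the wild type were also compared within control roots, where 36.3% of the tested genes were called (18.8% higher and 17.5% lower in *ram1*), and within mycorrhizal roots, where 52.7% were called (26.7% higher and 25.9% lower). Of the 1186 genes with a smaller response, 693 were lower in *ram1* in mycorrhizal roots and not called in control roots, 185 were higher in *ram1* in control and lower in mycorrhizal roots, and 132 were higher in *ram1* in control roots only. Of the 924 genes with a larger response, 548 were higher in *ram1* in mycorrhizal roots and not called in control roots, 149 were lower in *ram1* in control roots only, and 81 were lower in *ram1* in control and higher in mycorrhizal roots.

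Many genes of plastid fatty acid synthesis, the pathway that makes the acyl chains of lipids, were induced in the wild type only. Of the 61 tested members of the list, 22 (36.1%) had a smaller response in *ram1* and 1 (1.64%) a larger one, against 5.17% and 4.03% of all tested genes. In *ram1* 1 was induced and 4 repressed, while in the wild type 26 were induced and 13 repressed. The median difference in response was −0.52 over the list and 0.01 over all tested genes. The genes described next are those named by rule, with 6 further members, from biotin carboxylase to the acyl carrier proteins, chosen after their values were seen. The gene for the beta subunit of pyruvate dehydrogenase E1 (Peaxi162Scf00394g00118.1), which supplies acetyl-CoA, had 37.97, 41.5 and 39.9 CPM in mycorrhizal and 41.9, 42.8 and 42.4 CPM in control *ram1* roots, against 330.1, 322 and 351 CPM in mycorrhizal and 40.5, 47.9 and 46.5 CPM in control wild type roots. The 3 mycorrhizal wild type libraries were far above the other 9. The difference in response was −2.99 (SE 0.123, adjusted p = 8.8e-07). The gene for the acetyltransferase component of the same complex (Peaxi162Scf00004g01917.1) had 30.6, 29.4 and 34.4 CPM in mycorrhizal and 27.9, 32.2 and 29.8 CPM in control *ram1* roots, against 282, 295 and 266 CPM in mycorrhizal and 33.1, 37.97 and 31.96 CPM in control wild type roots. This gene differed in response by −2.96 (SE 0.144, adjusted p = 1.7e-06). Here the groups of *ram1* overlapped and those of the wild type lay far apart.

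The carboxylation of acetyl-CoA to malonyl-CoA opens the pathway. Biotin carboxylase (Peaxi162Scf00021g02414.1) had 81.7, 89.4 and 82.4 CPM in mycorrhizal and 93.6, 94.1 and 92.6 CPM in control *ram1* roots, against 357, 359.6 and 380.5 CPM in mycorrhizal and 95.7, 91.8 and 87.1 CPM in control wild type roots. Biotin carboxylase differed in response by −2.14 (SE 0.111, adjusted p = 2.6e-06). The biotin carboxyl carrier protein of the same enzyme (Peaxi162Scf00013g00635.1) had 12.99, 18.4 and 15.02 CPM in mycorrhizal and 12.4, 11.9 and 13.1 CPM in control *ram1* roots, against 144, 155 and 159 CPM in mycorrhizal and 13.7, 13.6 and 11.3 CPM in control wild type roots. The carrier protein gene differed in response by −3.26 (SE 0.182). Both genes were high in the mycorrhizal wild type roots alone. Malonyl transacylase (Peaxi162Scf00055g00057.1), which moves the malonyl group to the acyl carrier protein, showed 34.5, 35.2 and 36.4 CPM in mycorrhizal and 38.6, 38.4 and 36.8 CPM in control *ram1* roots, against 144, 148 and 161 CPM in mycorrhizal and 51.1, 50.8 and 55.5 CPM in control wild type roots. Malonyl transacylase differed in response by −1.63 (SE 0.108). A set of 3 enzymes of the elongation cycle was also induced in the wild type only. The ketoacyl reductase (Peaxi162Scf00128g00834.1) differed in response by −3.69, the hydroxyacyl dehydratase (Peaxi162Scf00003g03625.1) by −2.47 and the enoyl reductase (Peaxi162Scf00258g00430.1) by −3.0, with adjusted p values between 1.1e-06 and 3.4e-06 (edgeR). Their *ram1* responses were 0.03, −0.11 and −0.01. Among the called list members, the largest reduction in response belonged to an acyl carrier protein (Peaxi162Scf00033g01724.1), the protein on which the chain grows, with 1.09, 1.56 and 0.362 CPM in mycorrhizal and 0.575, 0.693 and 1.04 CPM in control *ram1* roots, against 112, 93.8 and 118 CPM in mycorrhizal and 0.163, 0.168 and 0.0783 CPM in control wild type roots. The acyl carrier protein gene differed in response by −9.24 (SE 0.629, adjusted p = 1.3e-05). A second acyl carrier protein (Peaxi162Scf01067g00112.1) was expressed in every group, at 323, 288 and 273 CPM in mycorrhizal and 309, 240.0 and 322 CPM in control *ram1* roots, against 569.6, 609 and 702 CPM in mycorrhizal and 274, 289 and 283 CPM in control wild type roots, and differed in response by −1.13 (adjusted p = 0.0046, edgeR). The member with a larger response was a carboxyl transferase subunit of acetyl-CoA carboxylase (Peaxi162Scf00056g00313.1), which fell in the wild type. It had 135, 108 and 94.8 CPM in mycorrhizal and 125, 89.7 and 149.8 CPM in control *ram1* roots, against 85.2, 82.99 and 82.7 CPM in mycorrhizal and 196, 157 and 245 CPM in control wild type roots. This subunit gene differed in response by 1.15 (adjusted p = 0.033, edgeR). This call was lost without replicates 1 or 2 of mycorrhizal *ram1*, replicates 1 or 2 of control *ram1*, replicates 1, 2 or 3 of mycorrhizal wild type or replicates 1 or 3 of control wild type (adjusted p = 0.057 to 0.078, edgeR), whereas the 10 other fatty acid genes named kept theirs in all 22 alternatives.

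**Figure D2:**
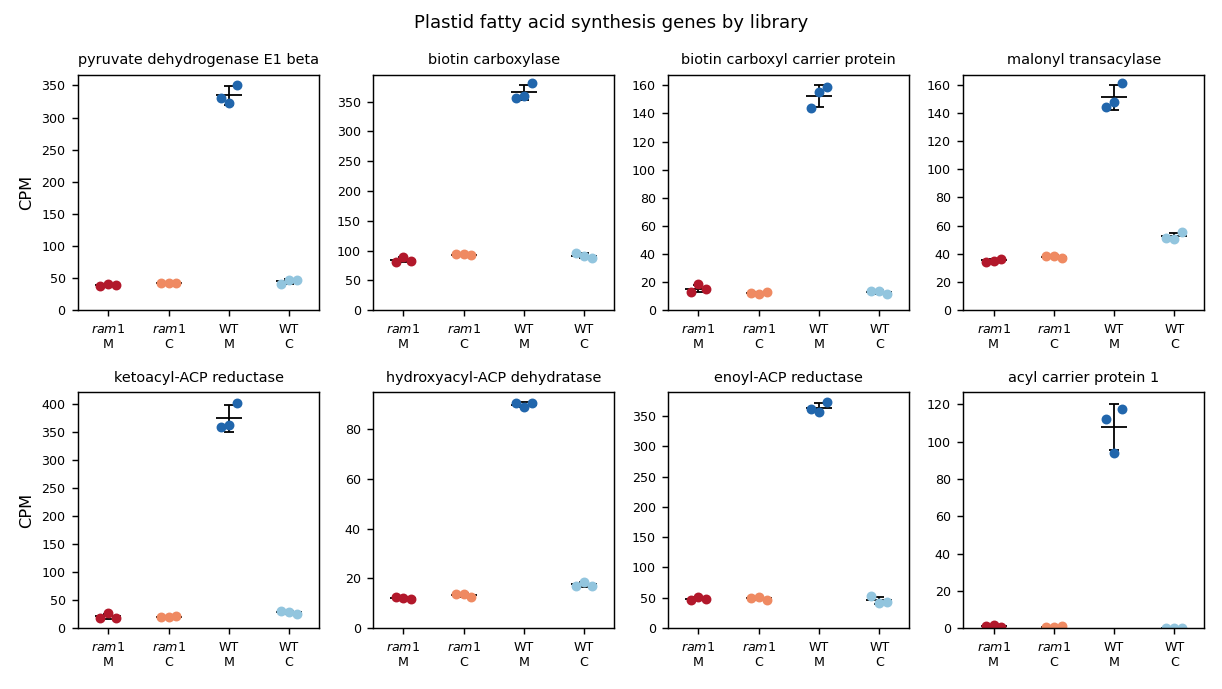
CPM of 8 genes of plastid fatty acid synthesis in each library; M is mycorrhizal, C is control, points are libraries, and the bar with whiskers is the mean ± SD of 3 libraries. In each panel the mycorrhizal wild type libraries lie far above the other 9, as for biotin carboxyl carrier protein with 12.99, 18.4 and 15.02 CPM in mycorrhizal *ram1* roots against 144, 155 and 159 CPM in mycorrhizal wild type roots.

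The symbiosis genes named by the study are described here by the step in which they act. Among the 6 genes of arbuscule function, 4 were induced in *ram1*, all were induced in the wild type, and 3 had a smaller response in *ram1*. In bulk roots a lower value from fewer arbuscule-containing cells and one from less transcript per cell cannot be told apart. *PT4* (Peaxi162Scf00618g00532.1), the phosphate transporter of the arbuscule membrane, had 7.62, 10.1 and 3.08 CPM in mycorrhizal and 4.76, 2.08 and 6.31 CPM in control *ram1* roots, against 651, 546 and 622 CPM in mycorrhizal and 26.01, 8.63 and 4.86 CPM in control wild type roots. The *ram1* groups overlapped and the wild type groups did not, and the difference in response was −4.9 (SE 0.856, adjusted p = 0.0065). *AMT2* (Peaxi162Scf00341g00514.1), an ammonium transporter, had 0.0778, 0 and 0.181 CPM in mycorrhizal and 0.0821, 0 and 0.0742 CPM in control *ram1* roots, against 194, 153 and 193 CPM in mycorrhizal and 0, 0.168 and 0.0783 CPM in control wild type roots. With 3 reads in the wild type controls together, its induction there was 2230-fold (95% counting interval 763 to 10810), and the difference in response was called (adjusted p = 0.0085, edgeR) except without replicate 1 of control *ram1* (adjusted p = 0.06, edgeR). *STR2b* (Peaxi162Scf00378g00624.1), a transporter of the ABC family, had 2.801, 4.39 and 2.895 CPM in mycorrhizal and 0.492, 0.07704 and 0 CPM in control *ram1* roots, against 196, 181 and 228 CPM in mycorrhizal and 0.488, 0.168 and 0.313 CPM in control wild type roots. *STR2b* differed in response by −5.14 (SE 1.09, adjusted p = 0.015), a call that was lost without replicate 1 of control *ram1* (adjusted p = 0.37, edgeR).

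The remaining arbuscule genes were not called although their levels in mycorrhizal roots lay far apart. *RAM2* (Peaxi162Scf00129g00625.1), a glycerol-3-phosphate acyltransferase, had 14 reads in mycorrhizal and 0 in control *ram1* libraries, against 10306 in mycorrhizal and 0 in control wild type libraries. Against 3 reads, the floor used for a group with none, it was at least 5.78-fold higher in mycorrhizal than in control *ram1* roots and at least 3557-fold higher in mycorrhizal than in control wild type roots. Without a read in either control group, edgeR gave the difference in response an adjusted p of 1.0, while DESeq2 (adjusted p = 3.8e-06) and limma-voom (adjusted p = 9.5e-05) called it. *STR* (Peaxi162Scf00282g00221.1), the partner of *STR2*, had 3.27, 13.9 and 7.96 CPM in mycorrhizal and 0.164, 0 and 0.0742 CPM in control *ram1* roots, against 203, 202 and 221 CPM in mycorrhizal and 0, 0.168 and 0.0783 CPM in control wild type roots (adjusted p = 0.21 in edgeR and 0.0069 in DESeq2). With 3 reads in each control group, its induction was 94.1-fold in *ram1* (95% counting interval 31.8 to 459.6) and 2594-fold in the wild type (887 to 12580). *STR2a* (Peaxi162Scf00286g00240.1) had 2.57, 8.35 and 3.17 CPM in mycorrhizal and 0.328, 0.693 and 0.668 CPM in control *ram1* roots, against 158, 146 and 155 CPM in mycorrhizal and 22.03, 11.9 and 4.62 CPM in control wild type roots. Its control level was also lower in *ram1*, and the difference in response was −0.63 (SE 0.966, adjusted p = 0.72).

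Genes that act in the infection of cortical cells were induced in both genotypes, all 4 of them in each. *MAP70-5* (Peaxi162Scf00008g00212.1), a microtubule-associated protein, rose less in *ram1*, with 6.85, 14.6 and 12.1 CPM in mycorrhizal and 1.395, 1.85 and 1.41 CPM in control *ram1* roots, against 37.05, 39.98 and 51.2 CPM in mycorrhizal and 1.06, 0.335 and 0.548 CPM in control wild type roots. *MAP70-5* differed in response by −3.2 (SE 0.513, adjusted p = 0.0041). *VAPYRIN* (Peaxi162Scf00575g00001.1) had 44.3, 60.7 and 55.1 CPM in mycorrhizal and 20.1, 16.02 and 18.9 CPM in control *ram1* roots, against 133, 146 and 148 CPM in mycorrhizal and 37.4, 18.9 and 22.3 CPM in control wild type roots. For *VAPYRIN* the difference of −0.9 was not called (SE 0.3099, adjusted p = 0.095), except without replicate 1 of control wild type roots and with DESeq2. For *EXO84* (Peaxi162Scf00415g00042.1), a subunit of the exocyst that tethers secretory vesicles, the difference was −2.48 (SE 0.708, adjusted p = 0.052), and 9 of 22 alternatives called it, among them those without replicates 1 or 2 of mycorrhizal *ram1*, replicate 3 of control *ram1* or replicate 1 of control wild type (adjusted p as low as 0.006). *EXO70i* (Peaxi162Scf00081g02225.1), another exocyst subunit, was also not called. It had 3.89, 8.63 and 6.33 CPM in mycorrhizal and 0.492, 0.231 and 0.148 CPM in control *ram1* roots, against 59.4, 62.03 and 56.6 CPM in mycorrhizal and 2.93, 4.53 and 1.801 CPM in control wild type roots. Both its mycorrhizal and its control levels were lower in *ram1*, the log2 responses were 4.38 in *ram1* and 4.27 in the wild type, and their difference was 0.11 (SE 0.478, adjusted p = 0.92). Of the 2110 called genes, 14 had the other sign when the difference was taken between CPM instead of log2 values, as had 1948 of the 20844 genes without a call.

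For most genes of symbiosis signaling and of strigolactones no difference in response was detected. Of the 8 common symbiosis signaling genes 1 had a difference in response. *CASTOR* (Peaxi162Scf00883g00321.1), an ion channel of the nuclear envelope, rose in *ram1* and fell in the wild type by small amounts, with 54.8, 52.6 and 59.6 CPM in mycorrhizal and 39.1, 40.2 and 45.3 CPM in control *ram1* roots, against 43.96, 45.1 and 47.3 CPM in mycorrhizal and 54.4, 59.6 and 51.5 CPM in control wild type roots. *CASTOR* differed in response by 0.7 (SE 0.129, adjusted p = 0.008). *CYCLOPS* (Peaxi162Scf02295g00022.1), the transcription factor downstream of calcium signaling, was induced in *ram1* (response 1.17, adjusted p = 0.013, edgeR) and not called in the wild type. The difference of 0.9 was not called (SE 0.308, adjusted p = 0.093) except without replicate 1 of control *ram1* roots (adjusted p = 0.014). The *CYCLOPS* control level was lower in *ram1*, at 47.1, 25.1 and 28.8 CPM against 98.8, 79.5 and 66.0 CPM in the wild type (adjusted p = 0.0011, edgeR). In mycorrhizal roots its level was not called different between the genotypes (adjusted p = 0.17, edgeR). For *SYMRK*, *POLLUX*, *NUP85*, *NUP133*, *NENA* and *CCaMK* the differences lay between −0.42 and 0.21 with adjusted p values of 0.31 to 0.59 (edgeR). Of the 5 tested strigolactone genes, the biosynthesis genes *D27*, *CCD7* and *CCD8* had differences of −0.48, −0.9 and 0.03 and no call, although without replicate 3 of control *ram1* roots those of *D27* and *CCD7* were called. The F-box gene *MAX2-B* (Peaxi162Scf00469g00034.1), a component of strigolactone perception, fell in the wild type only, with 14.8, 15.3 and 14.8 CPM in mycorrhizal and 11.6, 11.8 and 10.8 CPM in control *ram1* roots, against 5.44, 6.46 and 7.03 CPM in mycorrhizal and 8.37, 8.63 and 11.5 CPM in control wild type roots. *MAX2-B* differed in response by 0.98 (SE 0.205, adjusted p = 0.015). The second gene of this description, *MAX2-A*, (Peaxi162Scf00384g00211.1) had a difference of 0.2 (adjusted p = 0.65, edgeR).

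Genes of the phosphate starvation response fell in the wild type and were not called in *ram1* in many cases. Of 84 tested genes on the list of phosphate starvation and transport, 20 (23.8%) had a larger and 12 (14.3%) a smaller response in *ram1*, against 4.03% and 5.17% of all tested genes, and 18 of the 20 were repressed in the wild type only. In *ram1* 2 members were induced and 3 repressed, and in the wild type 18 were induced and 32 repressed. The median difference in response was 0.26, against 0.01 over all tested genes. The list was made by words in the descriptions, and 11 of its tested members are phosphotransferases and kinases that match by name alone, 1 of them with a larger and 1 with a smaller response. The 2 members with the smallest p in each direction are named by rule, and the others described were chosen after their values were seen. SPX domain gene 1 (Peaxi162Scf01269g00014.1), whose product senses the phosphate status and restrains starvation signaling in Arabidopsis and rice, had 832, 1058 and 715 CPM in mycorrhizal and 718, 636 and 910.0 CPM in control *ram1* roots, against 174, 136 and 121 CPM in mycorrhizal and 951, 772 and 611 CPM in control wild type roots. The mycorrhizal wild type libraries were low and the other 9 overlapped. The difference in response was 2.64 (SE 0.3104, adjusted p = 0.0006). SPX domain gene 3 (Peaxi162Scf00803g00014.1) was also lowest in mycorrhizal wild type roots, with 567, 754 and 522 CPM in mycorrhizal and 442, 385 and 708 CPM in control *ram1* roots, against 52.1, 48.2 and 23.2 CPM in mycorrhizal and 575, 402 and 313 CPM in control wild type roots. SPX domain gene 3 differed in response by 3.65 (SE 0.486, adjusted p = 0.0013).

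A pair of galactolipid synthase genes, whose products replace phospholipids when phosphate is scarce, was repressed in the wild type only. Monogalactosyldiacylglycerol synthase 2 (Peaxi162Scf00088g00096.1) had 333, 348 and 264 CPM in mycorrhizal and 289.8, 287 and 359 CPM in control *ram1* roots, against 91.3, 89.8 and 70.02 CPM in mycorrhizal and 376, 337 and 249.6 CPM in control wild type roots. The synthase gene differed in response by 1.95 (SE 0.252, adjusted p = 0.0011). Digalactosyldiacylglycerol synthase 2 (Peaxi162Scf00008g01718.1) had 212, 199 and 204 CPM in mycorrhizal and 238, 223 and 216 CPM in control *ram1* roots, against 113, 110.0 and 102 CPM in mycorrhizal and 197, 198 and 201 CPM in control wild type roots. Digalactosyldiacylglycerol synthase 2 differed in response by 0.74 (SE 0.114). Purple acid phosphatases, which release phosphate from organic compounds, were split. Purple acid phosphatase 17 (Peaxi162Scf00171g00924.1) had 286, 307 and 233 CPM in mycorrhizal and 403, 368 and 383 CPM in control *ram1* roots, against 87.3, 87.1 and 43.7 CPM in mycorrhizal and 474, 388 and 336 CPM in control wild type roots. Acid phosphatase 17 differed in response by 1.98 (SE 0.335). Purple acid phosphatase 12 (Peaxi162Scf00656g00311.1) differed by 2.36 in the same direction (adjusted p = 0.0086, edgeR). Purple acid phosphatase 24 (Peaxi162Scf00309g00120.1) did the reverse: it had 7.31, 8.49 and 7.69 CPM in mycorrhizal and 16.2, 9.48 and 26.5 CPM in control *ram1* roots, against 72.9, 59.9 and 71.3 CPM in mycorrhizal and 14.96, 18.02 and 15.8 CPM in control wild type roots (difference −3.22, SE 0.403, adjusted p = 0.00089), and it was called down in *ram1* and up in the wild type. Purple acid phosphatase 10 (Peaxi162Scf00016g00349.1) was the member induced in *ram1* only, with 99.5, 113 and 76.6 CPM in mycorrhizal and 20.3, 16.4 and 59.8 CPM in control *ram1* roots, against 78.3, 76.1 and 45.4 CPM in mycorrhizal and 146, 127 and 131 CPM in control wild type roots. Acid phosphatase 10 differed in response by 2.59 (adjusted p = 0.02, edgeR).

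The next 3 phosphate transporter genes other than *PT4* were repressed in the wild type only. A phosphate transporter 1 gene (Peaxi162Scf00829g00066.1) had 512, 458 and 318 CPM in mycorrhizal and 604, 379 and 592 CPM in control *ram1* roots, against 162, 207 and 52.8 CPM in mycorrhizal and 844, 714 and 765 CPM in control wild type roots. The transporter gene differed in response by 2.17 (SE 0.5599, adjusted p = 0.035), a call that was lost without replicates 1 or 2 of mycorrhizal *ram1*, replicates 1 or 2 of control *ram1*, replicate 1 of mycorrhizal wild type or replicates 1, 2 or 3 of control wild type (adjusted p = 0.058 to 0.088, edgeR). That transporter call was also lost without both *ram1* control replicate 3 and *ram1* mycorrhizal replicate 1. A phosphate transporter 2 gene (Peaxi162Scf00076g00027.1) differed by 4.0 (SE 0.596, adjusted p = 0.0027) and *PHO1* homolog 1 (Peaxi162Scf00198g00043.1), of a family that loads phosphate into the xylem, by 1.91 (SE 0.347, adjusted p = 0.0077). Their control levels already differed: the *PHO1* homolog had 63.3, 76.4 and 55.1 CPM in mycorrhizal and 55.1, 67.8 and 76.4 CPM in control *ram1* roots, against 5.25, 9.05 and 4.12 CPM in mycorrhizal and 23.1, 27.3 and 20.8 CPM in control wild type roots. Other gene models with the description of SPX domain gene 1 moved the opposite way to the first. One of them (Peaxi162Scf00944g00034.1) had 42.6, 64.95 and 50.5 CPM in mycorrhizal and 38.8, 40.1 and 45.7 CPM in control *ram1* roots, against 99.6, 79.9 and 117 CPM in mycorrhizal and 5.12, 8.55 and 7.52 CPM in control wild type roots. This SPX gene differed in response by −3.47 (SE 0.298, adjusted p = 7.1e-05). In this gene the control libraries of *ram1* were above those of the wild type and the mycorrhizal ones below. Another (Peaxi162Scf00062g00136.1) differed by −4.14 (adjusted p = 7.6e-05, edgeR), again with higher control levels in *ram1* (9.93, 11.02 and 18.3 CPM, against 1.06, 1.84 and 1.801 CPM in wild type controls).

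**Figure D3:**
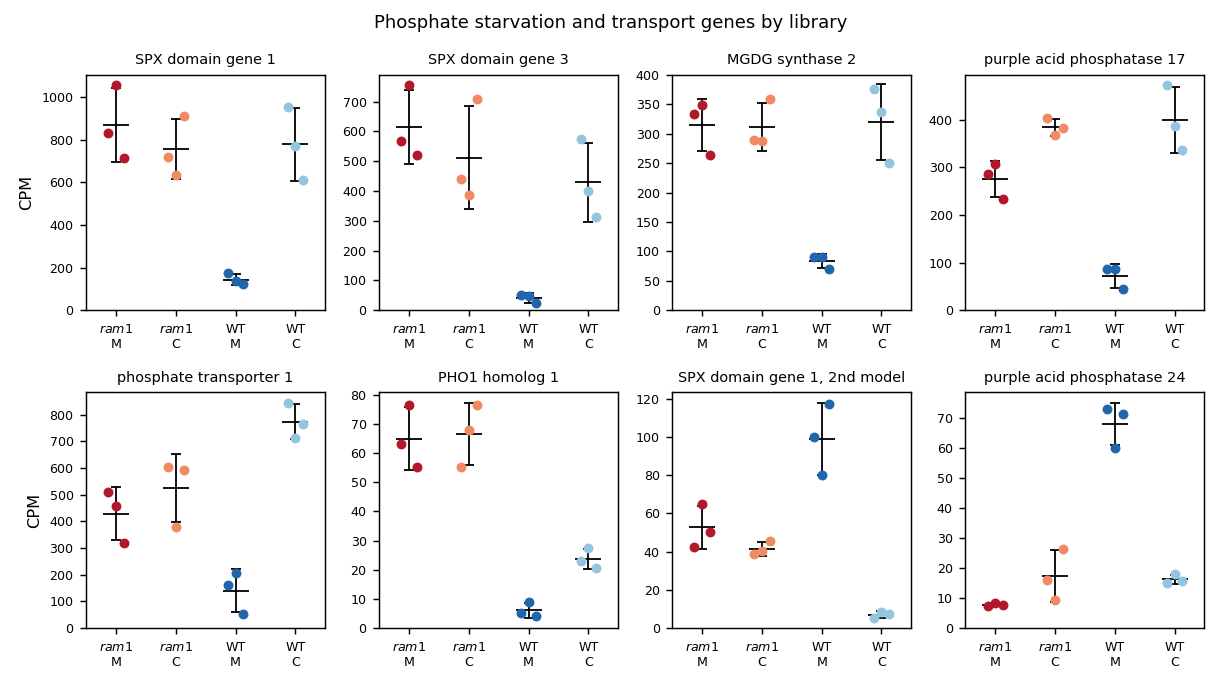
CPM of 8 phosphate starvation and transport genes in each library; M is mycorrhizal, C is control, points are libraries, and the bar with whiskers is the mean ± SD of 3 libraries. In the first 6 panels the mycorrhizal wild type libraries are the lowest group, as for SPX domain gene 3 with 567, 754 and 522 CPM in mycorrhizal *ram1* roots against 52.1, 48.2 and 23.2 CPM in mycorrhizal wild type roots, and in the last 2 they are the highest.

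In all, 620 genes were repressed in the wild type only, of which 376 were higher in *ram1* in mycorrhizal roots and not called in control roots. The count fell to 408 without *ram1* control replicate 2, to 364 without wild type mycorrhizal replicate 1, to 358 without wild type mycorrhizal replicate 2 and to 360 without wild type control replicate 1. Among the 5 named for the smallest p was a mannosyltransferase gene (Peaxi162Scf00141g00615.1), with 1205, 1327 and 979 CPM in mycorrhizal and 1253, 1198 and 1411 CPM in control *ram1* roots, against 381, 319.6 and 251 CPM in mycorrhizal and 2212, 2145 and 1588 CPM in control wild type roots. The mannosyltransferase gene differed in response by 2.51 (SE 0.271, adjusted p = 0.00034). An O-fucosyltransferase family gene (Peaxi162Scf00046g00053.1) differed by 2.52, a transporter of the major facilitator superfamily (Peaxi162Scf00089g00236.1) by 1.8 and a gene for a P-loop nucleoside triphosphate hydrolase (Peaxi162Scf00241g00035.1) by 1.33, with adjusted p values of 0.00015 to 0.00055 (edgeR). Xyloglucan endotransglucosylase 9 (Peaxi162Scf00171g00331.1), which remodels wall xyloglucan, had 12.1, 17.7 and 9.59 CPM in mycorrhizal and 14.5, 11.2 and 15.5 CPM in control *ram1* roots, against 0.0922, 0.587 and 0.229 CPM in mycorrhizal and 7.97, 5.87 and 3.52 CPM in control wild type roots. XTH9 differed in response by 4.12 (SE 0.616, adjusted p = 0.0027). A pair of genes for glycerol-3-phosphate acyltransferase 5, an enzyme of suberin synthesis in Arabidopsis, was called as repressed in the wild type only. The more abundant one (Peaxi162Scf00440g00218.1) had 274, 248 and 223 CPM in mycorrhizal and 197, 163 and 312 CPM in control *ram1* roots, against 106, 118 and 120.1 CPM in mycorrhizal and 318, 245 and 247 CPM in control wild type roots. The acyltransferase gene differed in response by 1.38 (adjusted p = 0.016, edgeR), and the other (Peaxi162Scf00164g01218.1) differed by 2.32. The other gene also fell in *ram1*, from 11.7, 12.1 and 13.1 CPM in control to 8.56, 8.07 and 7.15 CPM in mycorrhizal roots. That *ram1* response of −0.64 was not called (adjusted p = 0.19, edgeR). These genes were the only called members (6.06%, against 4.03% of all tested genes with a larger response) among 33 tested endodermis and suberin genes. The median response of the list was −0.54 in *ram1* and −0.57 in the wild type, with a median difference of −0.02. The summed level of the list was 1028 to 1122 CPM in mycorrhizal and 942 to 1427 CPM in control *ram1* roots. In the wild type it was 576 to 639 CPM in mycorrhizal and 907 to 1031 CPM in control roots. Such a sum is weighted towards abundant genes and does not follow the median member. The part of a shift in cell types in this result was not tested.

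The 802 genes induced in the wild type only included further enzymes with almost no response in *ram1*, and leaving out any 1 library kept this count between 542 and 902. Serine carboxypeptidase-like 22 (Peaxi162Scf00334g00323.1) had 14.2, 14.7 and 14.6 CPM in mycorrhizal and 16.6, 16.2 and 16.8 CPM in control *ram1* roots, against 127, 123 and 142 CPM in mycorrhizal and 20.7, 17.01 and 18.4 CPM in control wild type roots. Carboxypeptidase-like 22 differed in response by −2.99 (SE 0.131, adjusted p = 1.1e-06). Serine carboxypeptidase-like 40 (Peaxi162Scf00016g01639.1) had 86.4, 119 and 97.5 CPM in mycorrhizal *ram1* roots against 1764, 1780 and 1686 CPM in mycorrhizal wild type roots and differed by −4.46 (SE 0.299). Of 50 tested serine carboxypeptidases 8 (16%) had a smaller and 1 (2%) a larger response, against 5.17% and 4.03% of all tested genes. Chitinases, which cleave the main polymer of fungal walls, had a smaller response in 7 of 26 tested genes (26.9%) and a larger one in 1 (3.85%). Chitinase 2 (Peaxi162Scf00411g00083.1) had 1.4, 1.56 and 1.54 CPM in mycorrhizal and 0.985, 0.7704 and 1.11 CPM in control *ram1* roots, against 77.3, 51.6 and 47.03 CPM in mycorrhizal and 0.244, 0.587 and 0.235 CPM in control wild type roots. Chitinase 2 differed in response by −6.7 (SE 0.469, adjusted p = 1.5e-05). Germin-like protein 10 (Peaxi162Scf00040g10023.1) and laccase 1 (Peaxi162Scf00683g00123.1) were likewise induced in the wild type only, with differences of −8.89 and −5.29 (adjusted p = 2.4e-05 and 0.00038, edgeR). Both tested genes for gibberellin 3-oxidase 1 that were called, enzymes of the last step of gibberellin activation, rose in the wild type only. The first (Peaxi162Scf00015g00525.1) had 5.99, 4.81 and 5.34 CPM in mycorrhizal and 4.51, 5.01 and 2.3 CPM in control *ram1* roots, against 25.2, 28.8 and 18.2 CPM in mycorrhizal and 1.301, 1.76 and 1.097 CPM in control wild type roots (difference −3.65, SE 0.418, adjusted p = 0.00051), and the other (Peaxi162Scf00207g00837.1) differed by −1.84. An MLP-like protein 28 gene (Peaxi162Scf00442g00313.1) shows a smaller response at a higher level: it had 24.7, 21.6 and 26.6 CPM in mycorrhizal and 21.8, 22.8 and 35.7 CPM in control *ram1* roots, against 2.49, 2.43 and 3.28 CPM in mycorrhizal roots of the wild type and no read in its controls. In both conditions *ram1* was higher, and the wild type induction was at least 34.2-fold against 3 reads, the floor used for a group with none.

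Genes for cytosolic ribosomal proteins had small differences in response that pointed 1 way. Of 215 tested genes, 42 (19.5%) had a smaller response in *ram1* and 1 a larger one, against 5.17% and 4.03% of all tested genes. In *ram1* 14 were induced and none repressed, and in the wild type 176 were induced and none repressed. The median response was 0.19 in *ram1* and 0.59 in the wild type. The gene for the 60S protein L15 (Peaxi162Scf00961g00115.1) had 151, 149 and 164 CPM in mycorrhizal and 140.0, 163 and 118 CPM in control *ram1* roots, against 194, 221 and 219.7 CPM in mycorrhizal and 99.7, 109 and 108 CPM in control wild type roots. The L15 gene differed in response by −0.86 (SE 0.165, adjusted p = 0.0097). The 40S protein S26-2 gene (Peaxi162Scf00131g01512.1) differed by −0.74 (SE 0.142, adjusted p = 0.0099). The gene with a larger response, for a 40S protein S15 (Peaxi162Scf00906g00227.1), rested on few reads and 1 library, with 1.32, 0.141 and 7.33 CPM in mycorrhizal *ram1* roots and no read in its controls, against 0, 0.168 and 0.229 CPM in mycorrhizal and 0.325, 2.01 and 0.313 CPM in control wild type roots, and its induction in *ram1* was at least 40.9-fold against 3 reads, the floor used for a group with none. The call was lost without replicate 3 of mycorrhizal *ram1*, replicates 1 or 2 of control *ram1*, replicates 1, 2 or 3 of mycorrhizal wild type or replicates 1, 2 or 3 of control wild type (adjusted p = 0.054 to 0.11, edgeR) and with limma-voom. A replicate block also lost the S15 call. Copies of ribosomal protein genes are similar in sequence and may share reads.

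Transporters of nitrogen compounds and water differed by family member. Of 10 tested ammonium transporters, 4 (40%) had a smaller response in *ram1* and 1 (10%) a larger one, against 5.17% and 4.03% of all tested genes. A second gene annotated as ammonium transporter 2 (Peaxi162Scf01286g00133.1) rose in both genotypes, with 7.16, 11.5 and 11.9 CPM in mycorrhizal and 3.04, 1.46 and 0.816 CPM in control *ram1* roots, against 23.5, 21.04 and 32.3 CPM in mycorrhizal and 0.244, 0.168 and 0.157 CPM in control wild type roots. This ammonium transporter gene differed in response by −4.48 (SE 0.683, adjusted p = 0.0031). Ammonium transporter 1 (Peaxi162Scf00125g00122.1) fell in the wild type only, with 151, 169 and 168 CPM in mycorrhizal and 114, 99.1 and 144 CPM in control *ram1* roots, against 82.8, 91.6 and 63.7 CPM in mycorrhizal and 133, 120.0 and 139 CPM in control wild type roots. Ammonium transporter 1 differed in response by 1.17 (SE 0.222, adjusted p = 0.009). Among 43 tested aquaporins, the water channels of the plasma membrane and the tonoplast, 8 (18.6%) had a smaller and 2 (4.65%) a larger response, the second share being near that of all tested genes, and the median difference was −1.06. The tonoplast intrinsic protein 1 gene (Peaxi162Scf00110g00122.1) was abundant, with 1476, 1288 and 976 CPM in mycorrhizal and 1674, 1709 and 1880 CPM in control *ram1* roots, against 534, 551 and 275 CPM in mycorrhizal and 2252, 2133 and 2588 CPM in control wild type roots. The tonoplast gene differed in response by 1.87 (SE 0.348, adjusted p = 0.0087). It was called as repressed in the wild type only. Its *ram1* level also fell, with a smaller response of −0.49 that was not called (adjusted p = 0.2, edgeR). Aquaporin NIP1-2 (Peaxi162Scf01279g00027.1) rose in the wild type only, with 16.4, 28.02 and 24.97 CPM in mycorrhizal *ram1* roots against 108, 71.8 and 138 CPM in mycorrhizal wild type roots (difference −2.86, adjusted p = 0.0073, edgeR). In all, 4 of the 43 were repressed in *ram1* only, a class that holds 0.64% of all tested genes. Of the 43, 16 fell in *ram1* and 4 in the wild type, against 5.17% and 9.14% of all tested genes.

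The 147 genes repressed in *ram1* only included enzymes and transporters with their lowest level in mycorrhizal *ram1* roots. In 94 of them *ram1* was lower in mycorrhizal roots and not called in control roots. The count was 316 without *ram1* mycorrhizal replicate 1, 32 without *ram1* mycorrhizal replicate 2, 30 without *ram1* mycorrhizal replicate 3, 43 without *ram1* control replicate 1 or without *ram1* control replicate 2, and 374 without *ram1* control replicate 3. It was 63 and 66 without wild type mycorrhizal replicates 1 and 2, and 78 and 95 without wild type control replicates 1 and 2. Beta-galactosidase 8 (Peaxi162Scf00270g01010.1), a wall enzyme, had 36.3, 22.6 and 22.2 CPM in mycorrhizal and 66.7, 86.05 and 55.2 CPM in control *ram1* roots, against 130.4, 132 and 108 CPM in mycorrhizal and 73.5, 78.5 and 99.4 CPM in control wild type roots. Beta-galactosidase 8 differed in response by −1.91 (SE 0.306, adjusted p = 0.0041). The mycorrhizal *ram1* libraries were below all 9 others. The same held for an alpha/beta-hydrolase gene (Peaxi162Scf00053g00716.1), with 2.72, 1.98 and 2.44 CPM in mycorrhizal and 9.27, 8.94 and 9.72 CPM in control *ram1* roots, against 9.12, 8.38 and 6.34 CPM in mycorrhizal and 9.67, 11.98 and 10.3 CPM in control wild type roots. The hydrolase gene differed in response by −1.52 (SE 0.245, adjusted p = 0.0042). A Sec14p-like phosphatidylinositol transfer protein gene (Peaxi162Scf00003g01122.1) differed by −0.59 and a gene for a Core-2/I-branching glucosaminyltransferase (Peaxi162Scf00120g01512.1) by −1.01. A HAD hydrolase gene (Peaxi162Scf00903g00213.1) had 18.9, 18.96 and 17.9 CPM in mycorrhizal and 111, 106 and 31.2 CPM in control *ram1* roots, against 90.7, 83.99 and 142 CPM in mycorrhizal and 42.5, 61.8 and 63.2 CPM in control wild type roots. The HAD hydrolase gene differed in response by −3.07 (SE 0.5602, adjusted p = 0.008). Here control replicate 3 lay nearer to the mycorrhizal libraries than to the other controls of *ram1*.

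Nitrate reductase, a further gene of this class, was named by rule. The others described next, of which an aquaporin gene lies outside the class, were chosen for mention after their values were seen. The tonoplast monosaccharide transporter 2 gene (Peaxi162Scf00920g00113.1), which in Arabidopsis loads sugars into the vacuole, had 84.03, 56.2 and 63.05 CPM in mycorrhizal and 199.9, 193 and 106 CPM in control *ram1* roots, against 218, 209 and 220.0 CPM in mycorrhizal and 95.9, 167 and 144 CPM in control wild type roots. The monosaccharide transporter gene differed in response by −1.96 (SE 0.364, adjusted p = 0.0085). The ERD6-like 5 sugar transporter gene (Peaxi162Scf00434g00624.1) had 33.9, 22.9 and 18.4 CPM in mycorrhizal and 72.96, 62.2 and 44.5 CPM in control *ram1* roots, against 76.4, 79.5 and 77.3 CPM in mycorrhizal and 55.6, 58.6 and 63.7 CPM in control wild type roots. ERD6-like 5 differed in response by −1.64 (SE 0.301, adjusted p = 0.0081). In both genes mycorrhizal *ram1* libraries were the lowest and mycorrhizal wild type libraries the highest. Nitrate reductase (Peaxi162Scf00476g00046.1), the first enzyme of nitrate assimilation, had 100.2, 38.4 and 40.4 CPM in mycorrhizal and 644, 610.0 and 101 CPM in control *ram1* roots, against 858, 610.2 and 1258 CPM in mycorrhizal and 746, 979 and 669 CPM in control wild type roots. *ram1* control replicate 3 reached the level of mycorrhizal replicate 1, so the single differences of the 2 genotypes overlapped (difference −3.1, SE 0.846, adjusted p = 0.044), and the call was lost without replicates 2 or 3 of mycorrhizal *ram1*, replicates 1 or 2 of control *ram1*, replicates 1, 2 or 3 of mycorrhizal wild type or replicates 1, 2 or 3 of control wild type (adjusted p = 0.063 to 0.1, edgeR) and with limma-voom. The call was also lost with a replicate block. Nitrate reductase was the 1 called gene among 16 tested genes of nitrate uptake and assimilation. Of the 16, 7 were called as repressed in *ram1* and 5 in the wild type, against 5.17% and 9.14% of all tested genes. Plasma membrane aquaporins form channels for water. One of them (Peaxi162Scf00311g00022.1) had 121, 114 and 76.8 CPM in mycorrhizal and 672, 578 and 163 CPM in control *ram1* roots, against 644, 426 and 624 CPM in mycorrhizal and 363, 367 and 600.5 CPM in control wild type roots. This aquaporin gene differed in response by −2.53 (SE 0.615, adjusted p = 0.028). Its neighbour Peaxi162Scf00311g00023.1 had nearly the same counts in every library, so reads shared between similar copies cannot be told apart from like expression. For both genes the 9 differences of *ram1* overlapped with those of the wild type, and the call was lost without replicates 2 or 3 of mycorrhizal *ram1*, replicates 1 or 2 of control *ram1*, replicates 1 or 3 of mycorrhizal wild type or replicates 1 or 2 of control wild type (adjusted p = 0.052 to 0.071, edgeR). Both calls were also lost with a replicate block. Another aquaporin gene of this type (Peaxi162Scf00413g00214.1) was called for the difference of −2.91 (adjusted p = 0.022, edgeR) and in neither genotype alone. This call was lost without replicate 3 of mycorrhizal *ram1*, replicates 1 or 2 of control *ram1*, replicate 1 of mycorrhizal wild type or replicate 2 of control wild type (adjusted p = 0.051 to 0.054, edgeR) and with a replicate block.

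**Figure D4:**
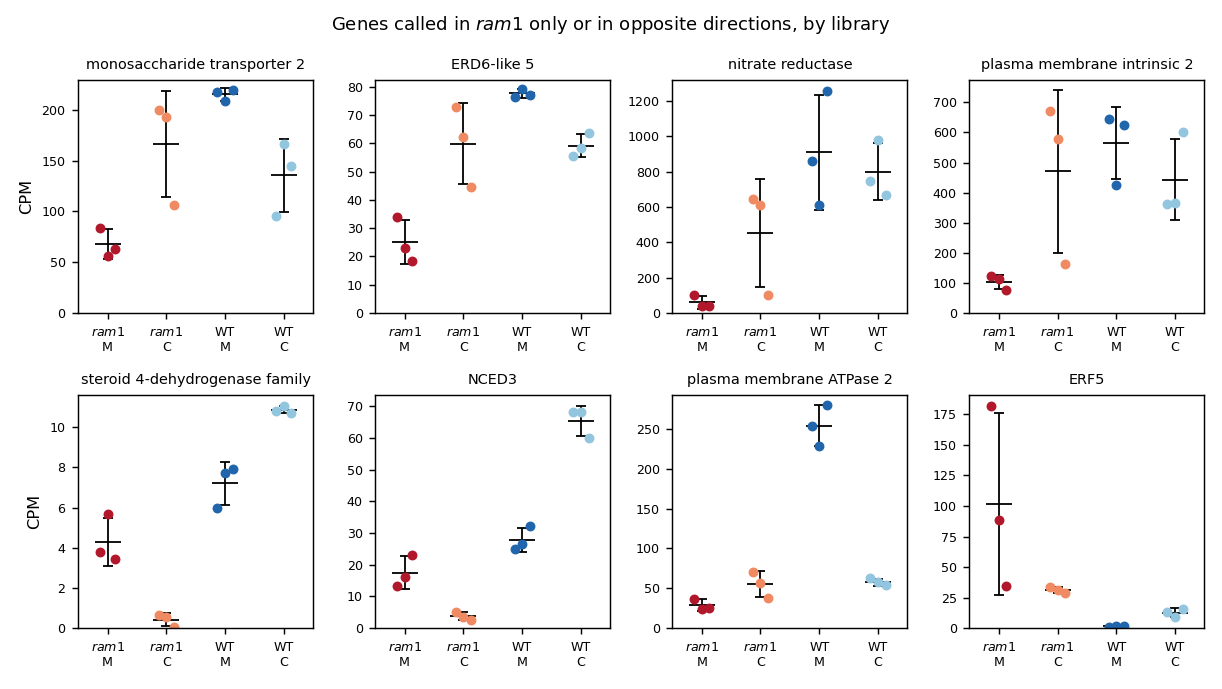
CPM in each library of 8 genes called in *ram1* only or in opposite directions; M is mycorrhizal, C is control, points are libraries, and the bar with whiskers is the mean ± SD of 3 libraries. For nitrate reductase and the aquaporin the lowest control library of *ram1*, at 101 and 163 CPM, lies close to the mycorrhizal libraries, and for the ERF5 gene the 3 mycorrhizal *ram1* libraries spread over 182, 88.9 and 34.4 CPM.

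Genes induced in *ram1* only also numbered 147, and for a part of them the difference lay in the control roots. *ram1* was higher in mycorrhizal roots and not called in control roots in 81, lower in control roots and not called in mycorrhizal roots in 30, and lower in control and higher in mycorrhizal roots in 10. The count was 247 without *ram1* mycorrhizal replicate 1, 37 and 73 without *ram1* mycorrhizal replicates 2 and 3, and 39, 20 and 574 without *ram1* control replicates 1, 2 and 3. It was 49 and 60 without wild type mycorrhizal replicates 1 and 2, and 67, 65 and 79 without wild type control replicates 1, 2 and 3. The 5 named genes with the smallest p were all low in *ram1* controls. A gene of the steroid 4-dehydrogenase family (Peaxi162Scf00120g00814.1) had 3.81, 5.66 and 3.44 CPM in mycorrhizal and 0.657, 0.539 and 0.0742 CPM in control *ram1* roots, against 5.99, 7.71 and 7.94 CPM in mycorrhizal and 10.8, 11.1 and 10.7 CPM in control wild type roots. The steroid dehydrogenase gene differed in response by 3.9 (SE 0.521, adjusted p = 0.0013). Even after induction its level in *ram1* stayed below both wild type groups. Endoglucanase 24 (Peaxi162Scf00083g00717.1) had 18.2, 18.96 and 23.8 CPM in mycorrhizal and 8.54, 7.47 and 8.24 CPM in control *ram1* roots, against 16.7, 17.3 and 19.6 CPM in mycorrhizal and 23.98, 20.3 and 15.1 CPM in control wild type roots. Endoglucanase 24 differed in response by 1.48 (SE 0.2403, adjusted p = 0.0044). A phosphatidic acid phosphatase gene of the PAP2 family (Peaxi162Scf00366g00815.1) and a UDP-glycosyltransferase gene (Peaxi162Scf00611g00218.1) differed in response by 1.16 and 2.3. In these 3 genes the mycorrhizal libraries of the genotypes overlapped and the control libraries did not. The chitinase-3-like protein 2 gene (Peaxi162Scf00347g00420.1) had 38.8, 43.6 and 85.1 CPM in mycorrhizal and 12.7, 8.86 and 22.5 CPM in control *ram1* roots, against 38.4, 41.8 and 38.2 CPM in mycorrhizal and 63.5, 63.02 and 71.8 CPM in control wild type roots. The chitinase-3-like gene differed in response by 2.67 (SE 0.472, adjusted p = 0.0069). An immune receptor gene of the NB-ARC type (Peaxi162Scf00757g00423.1) showed 18.1, 19.7 and 19.7 CPM in mycorrhizal and 5.75, 9.17 and 10.2 CPM in control *ram1* roots, against 18.1, 18.4 and 22.98 CPM in mycorrhizal and 19.9, 21.2 and 20.8 CPM in control wild type roots. The receptor gene differed in response by 1.24 (SE 0.255, adjusted p = 0.013).

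Opposite calls were made in 87 genes, 49 induced in *ram1* and repressed in the wild type and 38 repressed in *ram1* and induced in the wild type. The smallest p of all 22954 genes belonged to a subtilase gene (Peaxi162Scf00611g00319.1), a serine protease of the secretory pathway, with 0.156, 0.141 and 0.0905 CPM in mycorrhizal and 0.492, 0.539 and 0.519 CPM in control *ram1* roots, against 113, 116 and 122 CPM in mycorrhizal and 0.732, 0.754 and 0.705 CPM in control wild type roots. The subtilase gene differed in response by −9.22 (SE 0.259, adjusted p = 2.7e-08). Its fall in *ram1* was between levels of a few reads per library, with a response of −1.92 in *ram1* against 7.3 in the wild type. The *ram1* groups held 4 reads in mycorrhizal and 20 in control roots, and the wild type groups 4209 and 27. Counting error on so few reads is wider than the fitted SE. The rank of this gene by p and its call as repressed in *ram1* (adjusted p = 0.044, edgeR) rest on that SE and are not secure. A vacuolar-processing enzyme gene (Peaxi162Scf00436g00514.1), a cysteine protease, had 6.69, 2.69 and 4.88 CPM in mycorrhizal and 14.6, 16.8 and 7.495 CPM in control *ram1* roots, against 982, 945 and 1040 CPM in mycorrhizal and 10.1, 6.62 and 11.8 CPM in control wild type roots. The vacuolar-processing gene differed in response by −8.1 (SE 0.508, adjusted p = 8.7e-06). A phosphodiesterase gene of the PLC type (Peaxi162Scf00166g00337.1) differed by −7.85 and a katanin subunit gene (Peaxi162Scf00207g00838.1), for a protein that severs microtubules, by −5.0. A plasma membrane proton ATPase gene (Peaxi162Scf00346g00215.1), chosen after its values were seen, had 37.1, 24.3 and 24.9 CPM in mycorrhizal and 70.7, 56.01 and 37.99 CPM in control *ram1* roots, against 254, 228 and 279.6 CPM in mycorrhizal and 62.4, 57.4 and 53.6 CPM in control wild type roots. The proton ATPase gene differed in response by −3.06 (SE 0.313, adjusted p = 0.00022). The expansin B3 gene (Peaxi162Scf00132g00419.1), for a wall-loosening protein, and the kinesin 4 gene (Peaxi162Scf00001g03324.1) fell in *ram1* and rose in the wild type, with differences of −2.61 and −1.61.

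In the other direction, the gene for 9-cis-epoxycarotenoid dioxygenase 3 (Peaxi162Scf00227g00007.1), the rate-limiting enzyme of abscisic acid synthesis, had 13.3, 16.1 and 23.2 CPM in mycorrhizal and 5.01, 3.62 and 2.67 CPM in control *ram1* roots, against 25.1, 26.5 and 32.1 CPM in mycorrhizal and 68.1, 68.4 and 60.1 CPM in control wild type roots. The dioxygenase gene differed in response by 3.45 (SE 0.329, adjusted p = 0.00014). The 2 genotypes moved towards each other, and the groups did not overlap. A GRAS gene (Peaxi162Scf00073g00110.1) had 281, 220.2 and 165 CPM in mycorrhizal and 125, 119 and 132 CPM in control *ram1* roots, against 47.3, 55.3 and 41.2 CPM in mycorrhizal and 108, 80.2 and 124 CPM in control wild type roots. This GRAS gene differed in response by 1.95 (SE 0.288, adjusted p = 0.0026). Auxin response factor 2 (Peaxi162Scf00314g00539.1) differed by 1.31 (SE 0.196, adjusted p = 0.0028). The gene for ethylene-responsive transcription factor 5 (Peaxi162Scf00167g00083.1), chosen after its values were seen, had 182, 88.9 and 34.4 CPM in mycorrhizal and 33.3, 31.1 and 28.4 CPM in control *ram1* roots, against 1.198, 1.34 and 1.603 CPM in mycorrhizal and 13.4, 8.88 and 15.7 CPM in control wild type roots. ERF5 differed in response by 4.9 (SE 0.729, adjusted p = 0.0027). Heat shock transcription factor A2 (Peaxi162Scf00327g00413.1) had 72.1, 29.3 and 30.9 CPM in mycorrhizal and 15.02, 11.02 and 14.02 CPM in control *ram1* roots, against 2.77, 1.93 and 3.67 CPM in mycorrhizal and 9.27, 5.53 and 6.81 CPM in control wild type roots. Factor A2 differed in response by 3.09 (SE 0.525, adjusted p = 0.0056). In both genes mycorrhizal replicate 1 of *ram1* was at least 2-fold above its other replicates. The 208 tested heat shock and chaperone genes summed to 19490 to 27700 CPM in mycorrhizal and 14290 to 17270 CPM in control *ram1* roots, against 13990 to 15120 CPM in mycorrhizal and 13480 to 15190 CPM in control wild type roots. Of them 14 (6.73%) had a larger and 12 (5.77%) a smaller response in *ram1*, against 4.03% and 5.17% of all tested genes, and the part of this higher level in the result was not tested.

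Of the 156 genes called in the same direction in both genotypes, 143 were induced in both and less so in *ram1*, which is where *RAM1* itself falls. A beta-glucosidase 17 gene (Peaxi162Scf01116g00219.1) had 18.3, 32.3 and 26.5 CPM in mycorrhizal and 11.98, 7.55 and 10.02 CPM in control *ram1* roots, against 254, 282 and 247 CPM in mycorrhizal and 0.163, 0 and 0.313 CPM in control wild type roots. Beta-glucosidase 17 differed in response by −9.19 (SE 0.513, adjusted p = 3.4e-06). In control roots *ram1* was the higher genotype and in mycorrhizal roots the wild type. A GRAS gene (Peaxi162Scf00691g00048.1) showed the same crossing, with 10.7, 10.8 and 12.7 CPM in mycorrhizal and 2.79, 4.93 and 5.57 CPM in control *ram1* roots, against 37.9, 36.04 and 35.5 CPM in mycorrhizal and 0.0813, 0.0838 and 0.0783 CPM in control wild type roots. This other GRAS gene differed in response by −7.28 (SE 0.417, adjusted p = 3.8e-06). With 3 reads in the wild type controls, its induction there was 450.8-fold (95% counting interval 154 to 2189). A transporter gene annotated as pleiotropic drug resistance 6 (Peaxi162Scf00244g01216.1) differed by −4.21, a methyltransferase gene (Peaxi162Scf00013g00228.1) by −5.09 and beta-hexosaminidase 2 (Peaxi162Scf00402g00936.1) by −3.13, with adjusted p values of 3.8e-06 to 1.5e-05 (edgeR). A peroxidase gene (Peaxi162Scf00062g00127.1) was strongly induced in *ram1* as well, with 70.7, 135 and 133 CPM in mycorrhizal and 0.328, 1.001 and 1.19 CPM in control *ram1* roots, against 242, 317 and 256 CPM in mycorrhizal and 0.0813, 0.0838 and 0.0783 CPM in control wild type roots. The peroxidase gene differed in response by −4.5 (SE 0.773, adjusted p = 0.006), a call that was lost with limma-voom (adjusted p = 0.058). Germin-like protein 2 (Peaxi162Scf00003g04532.1), cinnamyl alcohol dehydrogenase 9 (Peaxi162Scf00913g00322.1), jasmonate ZIM-domain protein 4 (Peaxi162Scf00011g01124.1) and a small subunit gene of the carbon-fixing enzyme Rubisco (Peaxi162Scf00231g01221.1) were induced in both, with differences of −6.14, −5.49, −2.06 and −2.93. For the peroxidase and germin-like protein 2 the wild type controls held 3 reads each, and the inductions there were 3367-fold (95% counting interval 1152 to 16330) and 7644-fold (2615 to 37070).

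Only 13 genes of this class had the larger response in *ram1*, 6 induced in both and 7 repressed in both, and those named were chosen after their values were seen. Of the 6, a protein kinase gene (Peaxi162Scf00338g00013.1) had 7.703, 17.6 and 16.8 CPM in mycorrhizal and 0.0821, 0.07704 and 0 CPM in control *ram1* roots, against 89.4, 114 and 94.8 CPM in mycorrhizal and 6.58, 4.02 and 6.34 CPM in control wild type roots. With 2 reads in the *ram1* controls together, its induction there was 253-fold (95% counting interval 69.6 to 2097), and the call of the difference (adjusted p = 0.021, edgeR) held in 19 of 22 alternatives and was lost without replicates 1 or 2 of control *ram1* (adjusted p = 0.052 to 0.059, edgeR) and with limma-voom. A choline monooxygenase gene (Peaxi162Scf00046g00533.1) had 6.38, 8.07 and 10.04 CPM in mycorrhizal and 0.985, 0.462 and 0.965 CPM in control *ram1* roots, against 29.5, 32.1 and 38.4 CPM in mycorrhizal and 18.2, 17.6 and 12.1 CPM in control wild type roots. The monooxygenase gene differed in response by 2.27 (SE 0.372, adjusted p = 0.0046). A UDP-glycosyltransferase gene (Peaxi162Scf00760g00221.1) differed by 1.41. In all of these 3 genes *ram1* was below the wild type in both conditions, so the larger fold change started from a lower control level. Of the 7, a neutral invertase gene (Peaxi162Scf00684g00002.1), for an enzyme that cleaves sucrose, had 57.3, 50.4 and 45.6 CPM in mycorrhizal and 82.7, 66.2 and 62.8 CPM in control *ram1* roots, against 114, 111 and 101 CPM in mycorrhizal and 268, 236 and 227 CPM in control wild type roots. The invertase gene differed in response by 0.7 (SE 0.1799, adjusted p = 0.035), a call that was lost without replicates 1 or 2 of mycorrhizal *ram1*, replicate 2 of control *ram1*, replicates 1, 2 or 3 of mycorrhizal wild type or replicates 1, 2 or 3 of control wild type (adjusted p = 0.055 to 0.099, edgeR). The invertase call was also lost without both *ram1* control replicate 3 and *ram1* mycorrhizal replicate 1. A GRAS gene (Peaxi162Scf00650g00223.1) and an ABC-2 type transporter gene (Peaxi162Scf00017g00225.1) fell less in *ram1*, with differences of 0.85 and 1.24. The call of the transporter was lost without replicates 1 or 2 of mycorrhizal *ram1*, replicates 1 or 2 of control *ram1*, replicates 1 or 2 of mycorrhizal wild type or replicates 1 or 2 of control wild type (adjusted p = 0.071 to 0.1, edgeR) and with limma-voom or a replicate block.

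Among transcription factor families, GRAS genes had calls in both directions. Of 63 tested genes, 7 (11.1%) had a larger and 10 (15.9%) a smaller response, against 4.03% and 5.17% of all tested genes. Besides *RAM1* and the genes above, a GRAS gene induced in the wild type only (Peaxi162Scf00495g00016.1) had 10.7, 9.62 and 5.52 CPM in mycorrhizal and 9.52, 5.55 and 7.495 CPM in control *ram1* roots, against 38.2, 37.05 and 40.01 CPM in mycorrhizal and 3.495, 2.93 and 3.995 CPM in control wild type roots. That GRAS gene differed in response by −3.27 (SE 0.354, adjusted p = 0.00036). A GRAS gene repressed in the wild type only (Peaxi162Scf00776g00311.1) differed by 1.53 (SE 0.259, adjusted p = 0.0054). NAC genes had 7 larger (9.21%) and 1 smaller response (1.32%) among 76 tested, and WRKY genes 5 (6.94%) and 2 (2.78%) among 72. A NAC gene (Peaxi162Scf00015g00941.1) had 19.7, 14.4 and 11.7 CPM in mycorrhizal and 18.5, 17.3 and 26.4 CPM in control *ram1* roots, against 2.49, 1.68 and 2.06 CPM in mycorrhizal and 26.2, 13.2 and 9.71 CPM in control wild type roots. The NAC gene differed in response by 2.54 (SE 0.512, adjusted p = 0.012). For a WRKY gene (Peaxi162Scf00207g00432.1) with a difference of 2.52 (adjusted p = 0.025, edgeR), mycorrhizal replicate 1 of *ram1* was high (82.5, 44.4 and 21.7 CPM), and the call was lost without replicate 2 of control *ram1*, replicates 1, 2 or 3 of mycorrhizal wild type or replicates 1 or 3 of control wild type (adjusted p = 0.052 to 0.065, edgeR) and with limma-voom. Cytochrome P450 genes, a large family of oxidases, had 23 larger (7.03%) and 15 smaller (4.59%) responses among 327 tested.

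For the remaining lists, the shares stand against 4.03% of all tested genes with a larger and 5.17% with a smaller response. Germin-like genes had 7 smaller (13.7%) and 1 larger response among 51 tested, sulfate genes 3 (15%) and none among 20, and genes for PR10 and MLP proteins 4 (12.5%) and none among 32. Genes for cyclins, histones and replication had 14 smaller (8.81%) and 3 larger (1.89%) responses among 159. In the list of expansins, extensins and xyloglucan endotransglucosylases 7 of 107 had a smaller (6.54%) and 4 a larger response (3.74%). Of the 107, 28 were called as repressed in *ram1* and 10 in the wild type, against 5.17% and 9.14% of all tested genes. Of 107 tested lignin and phenylpropanoid genes 4 (3.74%) had a smaller and none a larger response, and of 39 jasmonate genes 2 (5.13%) and none. Auxin genes had 5 larger (4%) and 4 smaller (3.2%) responses among 125 tested, ethylene genes 3 and 3 (7.5% each) among 40, and peroxidases 3 (2.8%) and 2 (1.87%) among 107. Of the 12 tested phloem genes and the 9 clock genes none was called for a difference in response.

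The calls can be followed over 22 other ways of processing the same libraries, among them the 12 that leave out 1 library each. Larger responses in *ram1* were called in 474 to 1662 genes and smaller ones in 760 to 1626 genes over the 12. Without *ram1* control replicate 3 the count of larger responses passed that of smaller ones, at 1662 against 1626, and without both this library and *ram1* mycorrhizal replicate 1 the counts were 2117 and 2106.

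**Figure D5:**
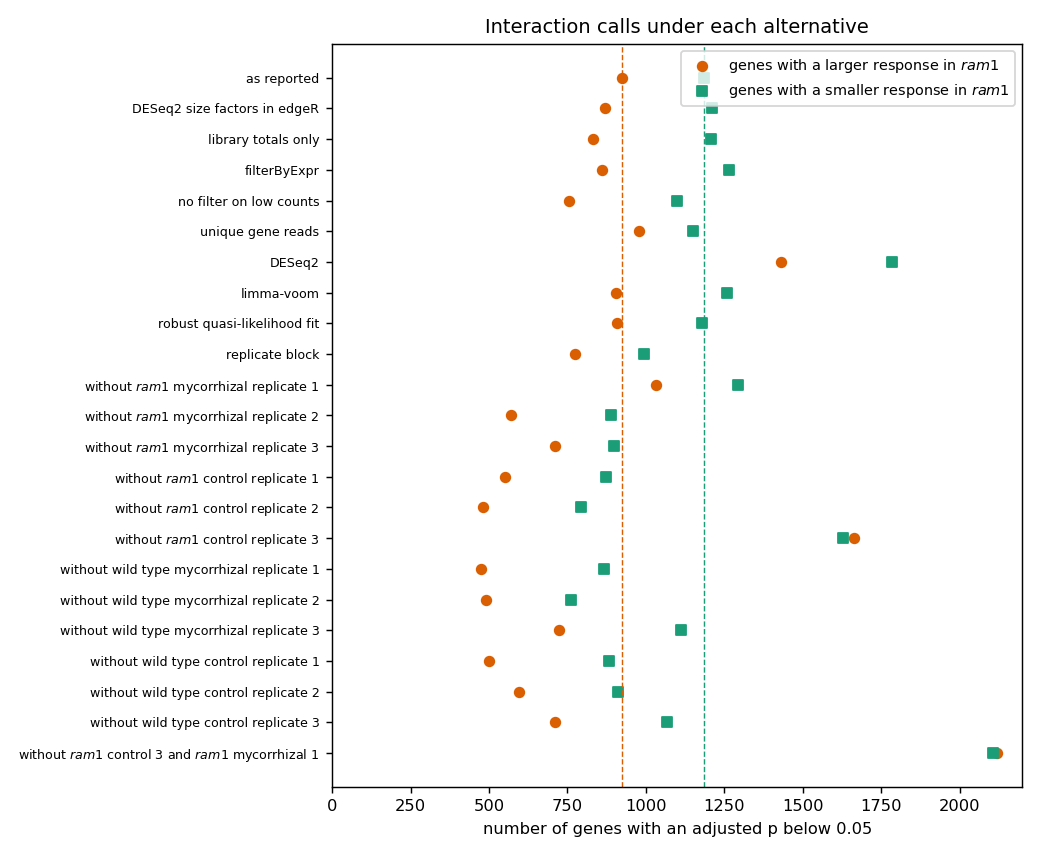
Number of genes with an adjusted p below 0.05 for the difference in response, on the x axis, under the reported setting and each alternative, on the y axis; circles are larger and squares smaller responses in *ram1*, and vertical lines mark the reported 924 and 1186. The counts without *ram1* control replicate 3 lie farthest to the right among the settings that leave out 1 library.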

How the data were processed

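Whole roots were sequenced as paired-end mRNA libraries, 3 per group. The authors mapped reads to *Petunia axillaris* gene models with CLC Genomics Workbench and deposited total gene read counts, an intact pair counting as 2 and a broken pair as 1. The deposited RPKM values and the columns of the authors' own comparisons (fold changes and p-values of Baggerly's test) were not used. The 2 deposited tables, of 6 libraries each, were joined by gene model, and genes with a mean of at least 10 reads in at least 1 group were kept. Counts were scaled by TMM and tested by edgeR's quasi-likelihood test (R 4.3.3, edgeR 4.0.16, limma 3.58.1) with 4 group means fitted over all 12 libraries and no covariate. Contrasts gave the interaction, the response in each genotype, and the genotype difference in each condition, with Benjamini-Hochberg adjustment over all tested genes and a threshold of 0.05. The libraries held 7152267 to 13391147 reads, and intervals and floors cover counting error only. Where a group held few reads, the fitted SE could be smaller than counting error, as for the subtilase gene. Replicate plants are stated by the study.

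In a simulation of the interaction on 22954 genes, 15 of 100 genes changed 2-fold and 78 of 100 changed 5-fold were recovered, with 2 false calls. Most 2-fold differences were thus missed in that setting. The changed genes were far fewer than the 2110 called in the data and were drawn above a minimum mean count. False calls among genes capped at a high level were not counted. The rates therefore do not give the recovery or false calls of the real test. Named genes are *RAM1*, the symbiosis genes of the study, up to 5 genes per class with the smallest p, a mean of at least 100 reads and no overlap of the 9 differences, and up to 2 members per list and direction; others are said to be chosen after their values were seen. The members and lists were chosen with earlier results of these data known. Lists were made from words in the gene descriptions. Alternatives were another scaling, other filters, unique reads, DESeq2 1.42.0, limma-voom, a robust fit, a replicate block and leaving out libraries.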

Additional observations from a re-analysis of the deposited data

Results flagged for a closer look

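Each result listed here was picked out because the response to inoculation differed between *ram1* and the wild type by the interaction test (edgeR, adjusted p below 0.05). By that test 924 genes had a larger and 1186 a smaller response in *ram1*, 147 genes were repressed and 147 induced in *ram1* only, and 620 were repressed and 802 induced in the wild type only. The values are differences in response, *ram1* minus wild type, on the log2 scale, for the genes described in the report. Gene models are written without the leading letters Peaxi162 and the final version number.

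Among the genes induced in the wild type only, the difference was −4.9 for *PT4*, −10.16 for *AMT2*, −2.99 for Scf00394g00118, −2.47 for Scf00003g03625, −3.0 for Scf00258g00430, −2.96 for Scf00004g01917, −2.14 for Scf00021g02414 and −3.26 for Scf00013g00635. It was −3.69 for Scf00128g00834, −9.24 for Scf00033g01724, −1.63 for Scf00055g00057, −1.13 for Scf01067g00112, −3.47 for Scf00944g00034, −4.14 for Scf00062g00136, −2.99 for Scf00334g00323 and −4.46 for Scf00016g01639. The value was −6.7 for Scf00411g00083, −8.17 for Scf00442g00313, −8.89 for Scf00040g10023, −5.29 for Scf00683g00123, −3.65 for Scf00015g00525, −1.84 for Scf00207g00837, −2.86 for Scf01279g00027 and −0.86 for Scf00961g00115. It was −0.74 for Scf00131g01512 and −3.27 for Scf00495g00016.

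Among those repressed in the wild type only, the difference was 0.98 for *MAX2-B*, 1.15 for Scf00056g00313, 2.64 for Scf01269g00014, 3.65 for Scf00803g00014, 1.95 for Scf00088g00096, 0.74 for Scf00008g01718, 1.98 for Scf00171g00924 and 2.17 for Scf00829g00066. It was 4.0 for Scf00076g00027, 1.91 for Scf00198g00043, 2.36 for Scf00656g00311, 1.8 for Scf00089g00236, 2.51 for Scf00141g00615, 2.52 for Scf00046g00053, 1.33 for Scf00241g00035 and 4.12 for Scf00171g00331. The value was 2.32 for Scf00164g01218, 1.38 for Scf00440g00218, 1.87 for Scf00110g00122, 1.53 for Scf00776g00311, 2.54 for Scf00015g00941, 2.52 for Scf00207g00432 and 1.17 for Scf00125g00122.

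Among the genes induced in *ram1* only, the difference was 2.59 for Scf00016g00349, 3.9 for Scf00120g00814, 1.48 for Scf00083g00717, 1.16 for Scf00366g00815, 2.67 for Scf00347g00420, 2.3 for Scf00611g00218, 1.24 for Scf00757g00423 and 10.74 for Scf00906g00227.

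Among those repressed in *ram1* only, the difference was −1.91 for Scf00270g01010, −1.52 for Scf00053g00716, −0.59 for Scf00003g01122, −1.01 for Scf00120g01512, −3.07 for Scf00903g00213, −1.96 for Scf00920g00113, −1.64 for Scf00434g00624 and −3.1 for Scf00476g00046. It was −2.53 for Scf00311g00022 and −2.52 for Scf00311g00023.

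Among the genes called in opposite directions, the difference was 0.7 for *CASTOR*, −3.22 for Scf00309g00120, −9.22 for Scf00611g00319, −8.1 for Scf00436g00514, −7.85 for Scf00166g00337, −5.0 for Scf00207g00838, 3.45 for Scf00227g00007 and −3.06 for Scf00346g00215. It was 4.9 for Scf00167g00083, 1.95 for Scf00073g00110, 1.31 for Scf00314g00539, −2.61 for Scf00132g00419, −1.61 for Scf00001g03324 and 3.09 for Scf00327g00413.

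Among the genes called in the same direction in both genotypes, the difference was −4.05 for *RAM1*, −3.2 for *MAP70-5*, −5.14 for *STR2b*, −9.19 for Scf01116g00219, −5.09 for Scf00013g00228, −7.28 for Scf00691g00048, −4.21 for Scf00244g01216 and −3.13 for Scf00402g00936. It was −4.48 for Scf01286g00133, −6.14 for Scf00003g04532, −5.49 for Scf00913g00322, −4.5 for Scf00062g00127, −2.93 for Scf00231g01221, −2.06 for Scf00011g01124, 2.27 for Scf00046g00533 and 3.67 for Scf00338g00013. The value was 0.7 for Scf00684g00002, 0.85 for Scf00650g00223, 1.41 for Scf00760g00221 and 1.24 for Scf00017g00225.

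Of the genes called in neither genotype alone, the difference was −2.91 for Scf00413g00214.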

How the results depend on the processing

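Of 3650 values of single genes under the alternatives, 3413 kept their call status, 218 lost and 19 gained a call. The sign differed from the reported one in 11 values, all of *CCD8* and *EXO70i* and none of them called (−0.35 to 0.31 for *CCD8* and −0.3 to 0.65 for *EXO70i*). Leaving out each library in turn gave 474 to 1662 larger and 760 to 1626 smaller responses in *ram1* (924 and 1186 as reported), 30 to 374 genes repressed and 20 to 574 induced in *ram1* only, and 358 to 698 repressed and 542 to 902 induced in the wild type only. DESeq2 called 1431 larger and 1785 smaller responses, with 312 genes repressed and 296 induced in *ram1* only. Without both *ram1* control replicate 3 and *ram1* mycorrhizal replicate 1, a choice made with the distances of the libraries known, the counts were 2117 larger and 2106 smaller, with 753 repressed and 911 induced in *ram1* only. The cause was not tested. Other scalings, filters, unique reads, limma-voom and a robust fit stayed within 1.5-fold of the 6 counts and moved the median of all genes by less than 0.03 on the log2 scale. Of 18 correlations of same-numbered deviations 4 were over 0.1 (−0.23 to 0.36). The highest was between replicate 1 of mycorrhizal and of control *ram1*. With 3 libraries per group these values cannot decide whether the replicate numbers pair the samples. With a replicate block 775 larger and 993 smaller responses were called, which kept 76.1% and 80.3% of the reported calls. Without 11 list members that match by name alone, a step chosen after seeing the data, 19 of 73 phosphate genes had a larger and 11 a smaller response. Depth limits genes near 0 in the controls, such as *RAM2*, for which no difference between fold responses could be tested well.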
